A study of Mus musculus with 2 samples.

Results

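Hvcn1, which encodes the voltage-gated proton channel, and 5 genes of the phagocyte NADPH oxidase (Cybb, Cyba, Ncf1, Ncf4 and Rac2) were compared between CD80high and CD80low marginal zone B cells of the mouse spleen. These 6 genes were taken by symbol from the 21829 gene symbols of the authors' comparison table, and all 6 had a row. Hvcn1 was chosen by its measured FPKM, which was higher in CD80low, so its difference is given as a description with no test; the other 5 came with it as parts of one enzyme. The series sequenced messenger RNA of wild type, untreated male C57BL/6 mice, with 1 library for each population. CD80, the protein used to divide the cells, costimulates T cells, and the comparison asks how the transcription of the 2 populations differs. The labels and notes used here do not state the age or number of animals, the number of cells or the other markers of the sort.

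The phagocyte NADPH oxidase passes electrons from NADPH across a membrane to oxygen and so makes superoxide. Its core in the membrane is a heterodimer of the products of Cybb, the catalytic subunit, and Cyba, its stabilising partner. Cytosolic subunits, among them the products of Ncf1 (organiser) and Ncf4 (regulator), and a Rac GTPase join it from the cytosol on activation. Electron transfer leaves positive charge and protons behind, and the proton channel lets protons out, which keeps the oxidase running. B cells carry the same oxidase as phagocytes, and the proton channel is known to associate with the B cell antigen receptor. Mouse B cells that lack the channel make less oxidant after receptor stimulation.

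With 1 library per group there is no spread between replicates, no test was made, and every difference rests on a single pair of libraries. Values are FPKM (a fragment count per length of transcript and size of library), and a fold is the ratio of 2 FPKM values. The approximate 95% interval beside a fold is an exact (Clopper-Pearson) interval on fragment numbers estimated from the steps of low values. It covers counting error only. Ratios on the log2 scale are log2((CD80high FPKM + 1)/(CD80low FPKM + 1)), so that a negative ratio means a lower value in CD80high. Estimated depth was close to 23200000 fragments in CD80high and 23100000 fragments in CD80low. Cd80 itself stood at 4.13 FPKM in CD80high against 1.32 in CD80low, in the direction of the labels.

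The coding stretch of Hvcn1 that holds the voltage sensor is shown because the proton channel is voltage-gated. It comes from transcript Hvcn1-201 of GENCODE M21, which is annotated on GRCm38 (mm10); the deposited values are per gene and do not tell the transcripts of Hvcn1 apart. The stretch spans the junction of exon 6 and exon 7 of 8, at chr5:122238580-122238637 and chr5:122240214-122240230, plus strand, within 810 coding bases. Capitals mark 3 arginine codons spaced 3 codons apart, the only such run in the reading frame and the charged positions of the sensor segment.

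Hvcn1: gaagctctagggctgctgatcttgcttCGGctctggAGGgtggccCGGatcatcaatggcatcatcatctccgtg

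Promoters of Cybb, Cyba and Ncf1 (3 of the 6 genes) were matched in RefSeq (GRCm38.p6), each from 250 bases before to 50 bases after the start site. They were searched on both strands for GGAA and GAAA with 2 bases between them, the composite element of PU.1 with an interferon regulatory factor, and for GAAA and GAAA with 2 bases between them, a tandem element of interferon regulatory factors. The Cybb promoter (chrX:9469275-9469574, minus strand) and the Ncf1 promoter (chr5:134229576-134229875, minus strand) are shown with their matches in capitals, because the genes of the named factors are among those measured below. The RefSeq start of Cybb used here lies inside the span of the gene given below (9435252 to 9487771), not at its 5' end.

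Cybb: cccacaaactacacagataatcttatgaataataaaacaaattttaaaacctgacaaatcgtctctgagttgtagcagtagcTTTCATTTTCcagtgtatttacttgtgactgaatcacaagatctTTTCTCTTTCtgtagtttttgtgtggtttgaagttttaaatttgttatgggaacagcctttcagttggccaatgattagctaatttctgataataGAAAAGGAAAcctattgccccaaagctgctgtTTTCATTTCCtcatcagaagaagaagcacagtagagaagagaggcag

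Ncf1: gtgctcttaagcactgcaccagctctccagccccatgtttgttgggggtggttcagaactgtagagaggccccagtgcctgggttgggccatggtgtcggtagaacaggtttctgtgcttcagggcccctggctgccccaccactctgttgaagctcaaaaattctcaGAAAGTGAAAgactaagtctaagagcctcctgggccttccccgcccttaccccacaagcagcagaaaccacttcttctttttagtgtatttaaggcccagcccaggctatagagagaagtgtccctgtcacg

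The composite element was found in the Cybb window, on the opposite strand from base 4 after the start, and 2.72% of all 32851 promoters of that length hold a match. The tandem element was found at 3 places in the Cybb window (from bases -168, -124 and -29) and at 1 place in the Ncf1 window (from base -82), against 3.44% of promoters with a match. These letters were not in the Cyba window. A match is a description of the sequence and does not show that a factor binds there.

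Hvcn1 (ENSMUSG00000064267, chromosome 5, 122206804 to 122242297, plus strand) had a level of 88.5 FPKM in CD80high and of 138 FPKM in CD80low. The level was thus 1.56-fold higher in CD80low, with an approximate 95% counting interval of 1.48 to 1.65. On the log2 scale the ratio was -0.64. It was the member with the largest difference. In bulk RNA of a sorted population, fewer cells that express a gene and less RNA per cell cannot be told apart.

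**Figure D1:**
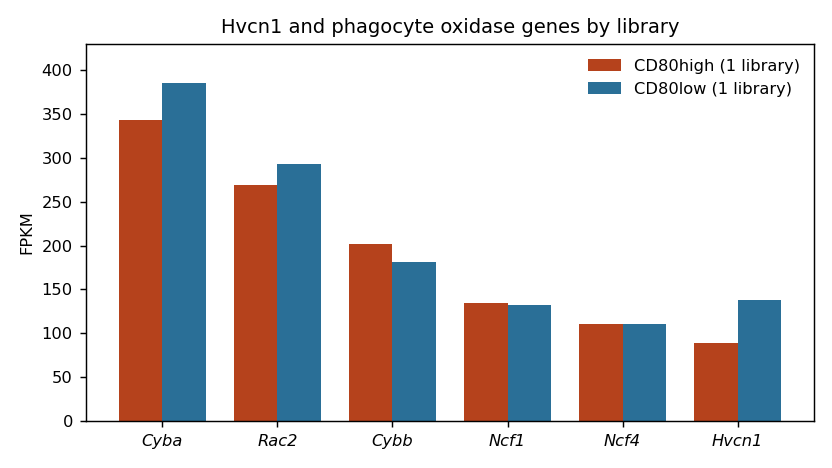
FPKM of the 6 genes in the CD80high library and the CD80low library; each bar is the value of 1 library, so there are no error bars. The pair of bars for Hvcn1 (88.5 and 138 FPKM) is the only one that differs by more than 25%.

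Of the membrane core, Cybb (ENSMUSG00000015340, chromosome X, 9435252 to 9487771, minus strand) stood at 202 FPKM in the CD80high library and at 182 FPKM in the CD80low library. It was 1.11-fold higher in CD80high (1.08 to 1.14). Cyba (ENSMUSG00000006519, chromosome 8, 122424776 to 122432930, minus strand) stood at 343 FPKM in CD80high, below its 386 FPKM in CD80low. It was 1.13-fold higher in CD80low (1.08 to 1.17). Both differences were small, and that of Cyba depended on the scale: its log2 ratio was -0.17 as deposited, -0.015 after rescaling both libraries to the mean total and 0.10 when adjusted by its longest transcript. Cyba had the higher level in both libraries. The level of Cyba was 170% of that of Cybb in CD80high and 212% in CD80low.

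The cytosolic subunits were nearly equal. Ncf1 (ENSMUSG00000015950, chromosome 5, 134220053 to 134229625, minus strand), the organiser, had 134 FPKM in CD80high against 133 in CD80low, a difference of 1.01-fold (0.98 to 1.05). Ncf4 (ENSMUSG00000071715, chromosome 15, 78244801 to 78262580, plus strand), whose product binds a phosphoinositide of phagosomes, had 110.99 FPKM and 111.1 FPKM. The ratio of Ncf4 was -0.0017 on the log2 scale, the smallest of the 6. For both genes the counting interval of the fold included 1, so a difference was not detectable at this depth. Rac2 (ENSMUSG00000033220, chromosome 15, 78559167 to 78572783, minus strand), the Rac GTPase of blood cells, had 269 FPKM in CD80high and a higher 293 FPKM in CD80low. It was 1.09-fold higher in CD80low (1.06 to 1.12), a direction that flipped after rescaling to the mean total (ratio 0.030).

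A difference was counted where the larger of the 2 values, each plus 1 FPKM, exceeded the smaller by at least 25%. Of the 6 genes, Hvcn1 was past this 25% limit on the lower side in CD80high, and 0 were past it on the higher side. Of 9955 genes whose mean reached 1 FPKM, 7.5% were past the limit on the lower side and 5.66% on the higher side. These were 747 and 563 genes, or 243 and 1493 when both libraries were rescaled to the mean of their totals. The other 5 members had ratios between -0.17 and 0.15, and the median over all genes was -0.015. The median ratio of the 6 genes was -0.063 as deposited and 0.091 after that rescaling, where that of all genes was 0.12. As deposited Hvcn1 was also past 1.5-fold, as were 0.894% of all genes in that direction, and it did not reach 2-fold, as 0.1% of genes did. The ratio of Hvcn1 fell short of 1.5-fold once rescaled (-0.48) or adjusted by median transcript length (-0.49). Adjusted by its longest transcript it stayed past 1.5-fold (-0.61).

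Few genes of its level had a ratio as low as that of Hvcn1. Among 1409 genes with a mean of 50 to 300 FPKM, 6 (0.426%) had a ratio at or below that of Hvcn1, and 9.08% were past the 25% limit on the lower side. The other 5 were Fcer2a (58.6 against 118.5 FPKM), Cops9, Uqcrb, Serpinb1a and Mrpl52. Over all levels the share was 0.563%. Since Hvcn1 was chosen for its value, these shares place it among the genes and are no test of it.

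**Figure D2:**
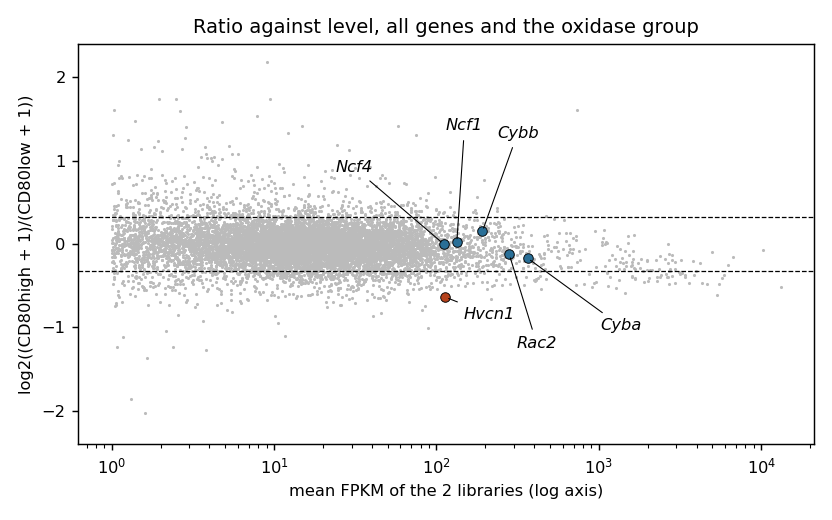
Log2 ratio of CD80high over CD80low (y axis, pseudocount of 1 FPKM) against the mean FPKM of the 2 libraries (x axis, log scale) for 9955 genes in grey, with the 6 genes labelled and dashed lines at a 25% difference. Hvcn1 lies at -0.64, below the lower line, and the other 5 lie between the lines.

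The order of levels was the same for the oxidase genes in both libraries: Cyba, Rac2, Cybb, Ncf1, Ncf4. Hvcn1 was below all 5 in CD80high and between Cybb and Ncf1 in CD80low, where it exceeded Ncf1 by a small margin (138 against 133 FPKM). Among all genes above 0, Hvcn1 held place 752 of 13720 in CD80high and place 476 of 13231 in CD80low. All 6 were abundant, and 5.48% of genes above 0 had a level at or above that of Hvcn1 in CD80high, where it was lowest. The summed level of the 5 oxidase genes was 1059 FPKM in CD80high and 1104 FPKM in CD80low, so the sum in CD80high was 95.9% of that in CD80low. The level of Hvcn1 was 8.36% of this sum in CD80high and 12.5% in CD80low. Set against Cybb alone, Hvcn1 stood at 43.8% in CD80high and 76.1% in CD80low.

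The closest genes to Hvcn1 by level in both libraries, by Euclidean distance on the log2(FPKM + 1) scale over the 2 libraries, were Hmgn1 (93.0 against 131 FPKM), Atp5j2 (98.3 against 132 FPKM), Cst3 (90.9 against 124 FPKM) and Eloc (91.8 against 124 FPKM). The 2 libraries give 2 points per gene, so this likeness says only that the levels are close.

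In the authors' deposited table, Hvcn1 had a p-value of 0.0143 and a q-value of 0.999. The p-values of the other 5 in the authors' deposited table were 0.583 for Cybb, 0.969 for Cyba, 0.934 for Ncf1, 0.994 for Ncf4 and 0.651 for Rac2. Those p-values were made from 1 library per group and compare the libraries, not the populations.

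Scaling moved the small differences. Totals over all listed genes were 551206 FPKM in CD80high and 613742 FPKM in CD80low. Rescaling both libraries to the mean total moved the median ratio of all genes by 0.14, from -0.015 to 0.12. Cyba then stood at -0.015 and Rac2 at 0.030, so the direction of Rac2 flipped, as did that of Ncf4 (0.15), while Cybb, Cyba and Ncf1 kept their sign. Relative to the median of all genes, Hvcn1 stood at -0.62 as deposited and -0.61 rescaled. On that relative scale Cybb stood at 0.17 and 0.18, Cyba at -0.15 and -0.14, and Rac2 at -0.11 and -0.095.

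Transcript length went along with the ratio across genes. Genes were split into 5 groups of like number by the median of their protein-coding transcripts. The median ratio was -0.11 in the group of shortest transcripts (up to 1010 nucleotides) and 0.085 in the group of longest (from 3659 nucleotides). Hvcn1 has 5 protein-coding transcripts of 427 to 2805 nucleotides with a median of 1010. The running median of ratios at that length was -0.14, and the ratio of Hvcn1 less that value was -0.49. With the longest transcript in place of the median, it was -0.61. Cyba, the member with the shortest transcripts (median 691 nucleotides), came to -0.069 after this adjustment, and to 0.10 with its longest transcript, so its direction depends on the scale. Ncf4 came to 0.11. FPKM also depends on which transcripts the fragments are assigned to, and the part of this in the difference of Hvcn1 was not tested.

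**Figure D3:**
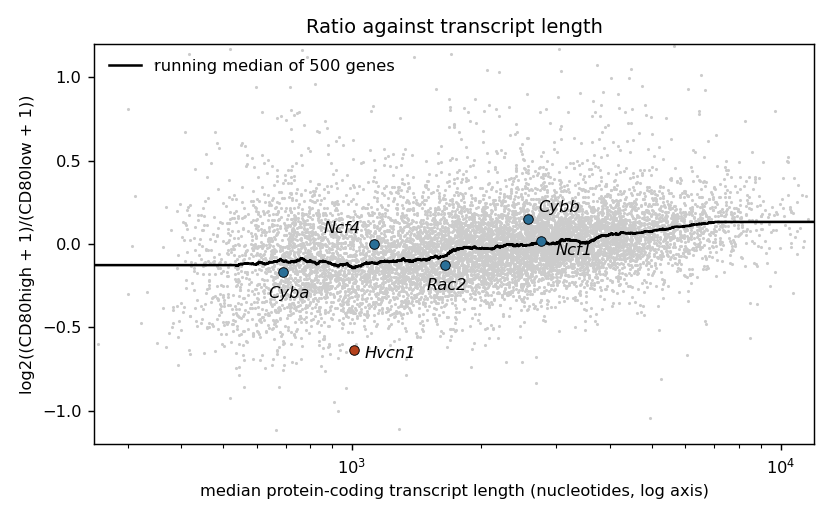
Log2 ratio of CD80high over CD80low (y axis) against median protein-coding transcript length in nucleotides (x axis, log scale) for genes whose mean reached 1 FPKM, with the running median of 500 genes as a black line. Hvcn1 lies 0.49 below the line at 1010 nucleotides; Cyba, Ncf1 and Rac2 lie close to it.

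Some members share their locus with other genes. The last exons of Hvcn1 overlap Tctn1 on the opposite strand, which stood at 1.89 FPKM in CD80high against 2.01 in CD80low. In the authors' table the locus of Hvcn1 runs on to 122264460, the end of Tctn1, and 2 genes share it. The 3' end of Ncf1 overlaps Gtf2ird2 on the opposite strand (6.25 against 5.65 FPKM). Both neighbours were far below the member. Cyba lies within Gm20388, annotated on the opposite strand, and the authors' table gives Cyba a locus of 4.44 Mb that 74 genes share. Gm20388 was near 0 in both libraries (0.000537 against 2.07e-07 FPKM). Libraries were directional per the labels; no source used here says whether strand entered the counting.

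3 partners of the oxidase outside these 6 genes were all somewhat lower in CD80high, as were 5330 of all 9955 genes. Of the 3, 0 were past the 25% limit. Rac1, the widely expressed Rac GTPase, had 63.4 FPKM in CD80high against 70.0 in CD80low, so that Rac2 exceeded it in both libraries. Cybc1, a chaperone of the membrane heterodimer, had 97.5 and 106 FPKM, and Rap1a, a GTPase found with that heterodimer, had 44.98 and 52.1 FPKM. The median ratio of the 3 was -0.14, and rescaling to the mean total brought it to 0.012, where that of all genes was 0.12.

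Other NADPH oxidases were near 0. Of 9 listed genes, Nox3, Nox4, Duox1, Duoxa1 and Duoxa2 were at 0 in both libraries, and Noxo1, an organiser subunit of other oxidases, was the only one whose mean reached 1 FPKM (1.29 against 1.58 FPKM). Cybb was thus the catalytic oxidase gene with a sizeable level in both libraries.

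Genes that act on oxidase activation had a median ratio of 0.070 over 13 measured genes. Of these, 10 were higher in CD80high, against 4624 of all 9955 genes. The median of the list became 0.22 after rescaling to the mean total, where that of all genes was 0.12. It became -0.0030 after adjustment for transcript length, so its sign depends on the adjustment. Prex1, an exchange factor for Rac, was the only one past the 25% limit (31.2 against 24.0 FPKM), against 5.66% of all genes. The protein kinase C genes Prkcb (115 against 101 FPKM) and Prkcd (72.0 against 67.7 FPKM), whose products phosphorylate cytosolic oxidase subunits, were within the 25% limit. So was Arhgdib (286 against 334 FPKM), which holds Rac proteins inactive in the cytosol of blood cells.

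Enzymes that supply NADPH were close in both libraries, with 0 of 8 measured genes past the 25% limit. Their median ratio was -0.052, and 0.097 after rescaling to the mean total, where that of all genes was 0.12. The most abundant were Taldo1 (106 against 117 FPKM) and Tkt (92.3 against 97.9 FPKM), both of the pentose phosphate pathway. Of 19 measured genes that remove superoxide and peroxide, 12 had lower values in CD80high, against 5330 of all 9955 genes. The median was -0.10 over all 19. Prdx5, a peroxidase, was the one past the 25% limit (45.8 against 60.05 FPKM), against 7.5% of all genes on that side. After rescaling to the mean total the median of these 19 was 0.051, so its sign flips with the scaling. The median of all genes moved likewise, from -0.015 to 0.12, and that of the list was below it both ways.

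Regulators and targets of the oxidant response had the highest median of these lists, 0.27 over 7 measured genes. Hmox1, which encodes heme oxygenase, had 4.78 FPKM in CD80high against 2.04 in CD80low. Mafg (15.4 against 11.3 FPKM) and Bach1 (17.6 against 13.2 FPKM), partners in a repressor of Hmox1, were also past the 25% limit in that direction. Bach2, a related repressor of B cells, was past it in the other (10.4 against 13.6 FPKM). Over all genes, 5.66% were past the limit on the higher side in CD80high and 7.5% on the lower side. Hmox1 is also abundant in macrophages of the spleen, and macrophage markers above 0 were higher in CD80high. The part of such cells in the difference of Hmox1 was not tested. With only genes of at least 5 FPKM, which leaves out Hmox1, the median was 0.15.

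Other routes for protons and bicarbonate had a median of 0.11 over 11 measured genes. Of these, 9 were higher in CD80high, opposite to Hvcn1, against 4624 of all 9955 genes. Slc9a9, a sodium and proton exchanger of endosomes, was the only one past the 25% limit (3.97 against 2.79 FPKM), against 5.66% of all genes on that side. The count past the limit is thus near its background, whereas the count by direction is above its own.

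The antigen receptor chains with which the proton channel associates, Cd79a (1284 against 1574 FPKM) and Cd79b (987 against 1183 FPKM), were lower in CD80high but within the 25% limit. The 7 genes of the receptor relay had a median of 0.020. Of 7 phosphatase genes whose products can be inactivated by oxidants, Ptpn6 (1101 against 360 FPKM) and Ptpn22 (45.02 against 35.8 FPKM) were past the 25% limit, both higher in CD80high. Over all genes, 5.66% were past the limit on that side. The median of the 7 was 0.093. Ptpn6 encodes a phosphatase that restrains the antigen receptor. The authors' deposited table gave it a p-value of 0.246.

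The genes of factors known to act on oxidase promoters were all lower in CD80high, 6 of 6 measured, against 5330 of all 9955 genes. Their median was -0.14, and 0.011 after rescaling to the mean total, where that of all genes was 0.12. Spi1, which encodes PU.1, had 44.4 FPKM in CD80high against 46.6 in CD80low. Irf8, its partner on composite elements, had 155 and 174 FPKM. The Cybb window holds letters that match such an element, and binding there was not tested. Runx1 was the only one past the 25% limit (27.3 against 38.2 FPKM), against 7.5% of all genes.

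**Figure D4:**
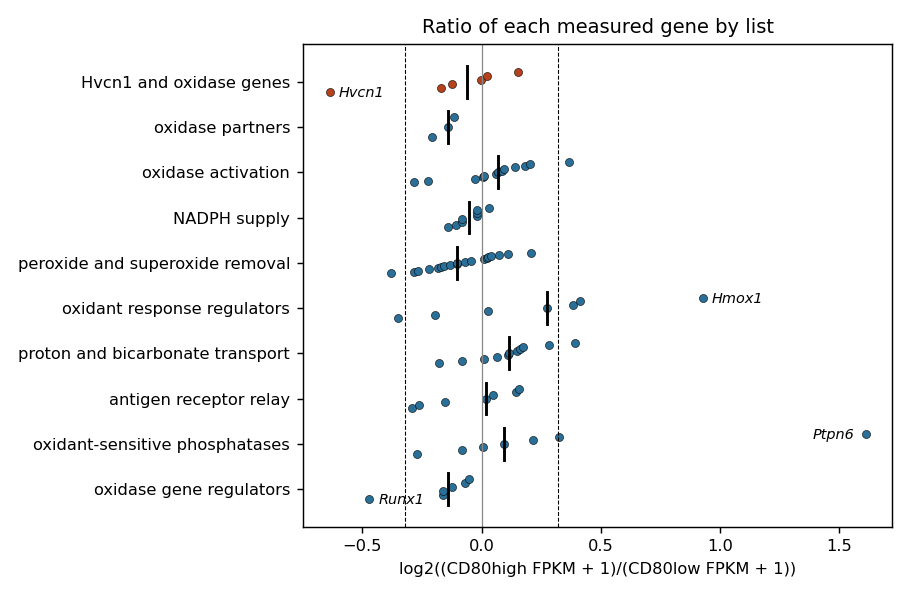
Log2 ratio of CD80high over CD80low for each measured gene (points) by list, with the list median as a black bar and dashed lines at a 25% difference; genes beyond 0.45 are named. Hvcn1 is the lowest point at -0.64, Ptpn6 the highest at 1.61, and the oxidase partners lie together around -0.14.

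The oxidase is best known from neutrophils and macrophages, so their markers were measured beside it. All 11 of the 13 neutrophil markers above 0 and all 15 of the 17 macrophage and monocyte markers above 0 were higher in CD80high. Their summed level was 36.4 FPKM in CD80high and 16.3 FPKM in CD80low over the 30 markers. The neutrophil markers Ly6g and Cxcr2 and the macrophage markers Vsig4 and Fcgr1 were at 0 in both libraries. The highest of the 13 neutrophil markers was S100a8 (1.89 against 0.166 FPKM), followed by S100a9 (1.33 against 0.258 FPKM), and the highest of the macrophage markers were Cd68 (9.16 against 6.81 FPKM) and Ly6c2 (7.48 against 2.06 FPKM). The part of such cells in the levels and differences of the 6 genes was not tested.

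Markers of B cells were abundant in both libraries, with Cd79a and Cd79b the highest. Of 8 marginal zone genes, 7 were higher in CD80high, against 4624 of all 9955 genes, and the median of the 8 was 0.17. Cd9 (76.3 against 54.9 FPKM), S1pr3 (91.2 against 68.9 FPKM) and Cd1d1 (126 against 96.8 FPKM) were past the 25% limit, against 5.66% of all genes on that side. The most abundant were Plac8 (1082 against 1029 FPKM) and Cr2 (807 against 837 FPKM), the one that was lower in CD80high. Of 4 follicular B cell genes, 3 were lower in CD80high, the direction of Hvcn1, against 5330 of all 9955 genes. The median of the 4 was -0.29. Fcer2a and Icosl (83.9 against 113 FPKM) were past the 25% limit, against 7.5% of all genes on that side. The most abundant follicular genes were Cxcr5 (185 against 206 FPKM) and Ccr7 (148 against 144 FPKM). The part of follicular B cells in the difference of Hvcn1 was not tested. Markers of other cells were mostly higher in CD80high, and many were near the floor. Over all 21829 genes at any level, 7465 were higher in CD80high and 6748 were lower. The mean reached 1 FPKM for 4 of 10 natural killer cell, 3 of 8 T cell and 2 of 7 dendritic cell markers. It did so for 3 of 7 erythroid and 0 of 4 platelet markers. Of the natural killer cell markers, 8 of 10 were higher, and the most abundant were Ccl5 (15.4 against 2.601 FPKM) and Prf1 (10.01 against 10.6 FPKM), which was slightly lower in CD80high. All 8 T cell markers were higher, with Lck (15.5 against 15.2 FPKM) and Cd5 (2.21 against 1.196 FPKM) the most abundant. Of the 7 dendritic cell markers 6 were higher, with Flt3 (2.15 against 1.94 FPKM) and Itgax (1.88 against 1.04 FPKM) the most abundant. Of the 7 erythroid markers 6 were higher, with Hba-a2 (2.37 against 1.21 FPKM) and Hba-a1 (1.82 against 1.11 FPKM) the most abundant. All 4 platelet markers were higher but low, with Itga2b (0.322 against 0.170 FPKM) and Pf4 (0.130 against 0 FPKM) the most abundant.

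**Figure D5:**
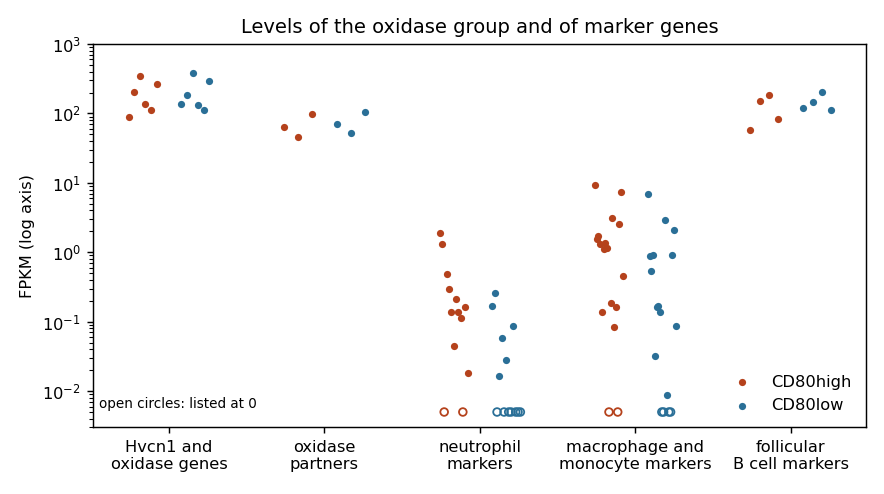
FPKM (log axis) of the 6 genes, of 3 oxidase partners and of marker genes of neutrophils, of macrophages and monocytes, and of follicular B cells, in CD80high and CD80low; each point is 1 gene in 1 library, and open circles at the foot are genes listed at 0. The 6 genes lie between 88.5 and 386 FPKM, and the highest neutrophil marker is at 1.89 FPKM.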

How the data were processed

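Messenger RNA was sequenced in 2 libraries, 1 per group, so groups hold 1 sample each and no test was made. The submitters' processing notes name the build mm10 and the tools STAR 2.6, Cufflinks 2.2.1, Cuffdiff, Cuffnorm and FastQC 0.11.5. The values deposited by the authors were taken as FPKM, the unit that Cuffdiff and Cuffnorm write; no header names the unit. The p-value and q-value are the authors', per the file headers. The authors' table held 21853 rows of protein-coding genes, and rows of the 24 repeated symbols were added up.

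From these values a log2 ratio with a pseudocount of 1 FPKM was computed, and genes were counted where the mean reached 1 FPKM and the values, each plus the pseudocount, differed by at least 25%. The pseudocount understates the change of low genes. No counts were used. Fragment numbers were approximated from the steps of low values in 1660 genes with a single transcript and over 2000 nucleotides. Of 183 low values in CD80high, 54.1% lay within 0.15 fragments of a whole number (48.6% of 181 in CD80low). Evenly spread values would give 30% at a spacing fixed beforehand. The spacing was fitted to these same values, so some excess over 30% is built in and the shares are no test of the depth. Intervals use the median protein-coding transcript length (GENCODE M21) and leave out transcript assignment and variation between animals. The calculations were checked on simulated data.

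The members and lists were chosen with earlier results of these data known, and some listed genes are not reported here. All members were named, with Cd80 as a label check. Of a list, all genes were named where it had 4 or fewer, otherwise those past 25% (up to 4 a direction) or else the most abundant pair, and of markers the most abundant pair; other names were added after their values were seen. Alternatives were another pseudocount (0.1 or 5 FPKM), filter, fold, scaling, centring, sheet or length adjustment. The software was pandas 2.3.3, numpy 2.4.6, scipy 1.17.1 and matplotlib 3.10.9 under Python 3.11.15.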

Additional observations from a re-analysis of the deposited data

How the results depend on the processing

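No paired analysis was possible because both groups are single libraries, and no replicate could be left out. Of 193 values under alternatives, 150 stayed within a set limit and 43 moved by more. For the ratio of a gene the limit came from the width of its approximate counting interval. For a list median it was the median of the limits of its genes, and for the median of all genes it was a fixed value. For counts of genes it was a change of up to 1.5 times. Pseudocounts of 0.1 and 5, centring and the second sheet moved no ratio of the 6 genes by more than its interval. These alternatives had little or no room to move them. The 2 sheets differed in 5 genes, of which 0 were listed, so the second sheet held the same values for every listed gene. Centring shifted all ratios alike by the median of -0.015, and all 6 genes lie far above the pseudocounts. The number of values that stayed within the limit is therefore no measure of robustness. Rescaled to the mean total, the ratios were -0.48 for Hvcn1, 0.31 for Cybb, -0.015 for Cyba, 0.17 for Ncf1, 0.15 for Ncf4 and 0.030 for Rac2. With the same rescaling, list medians were 0.091 for the 6 genes, 0.012 for oxidase partners, 0.22 for oxidase activation, 0.097 for NADPH supply, 0.051 for peroxide and superoxide removal, 0.43 for oxidant response regulators, 0.26 for proton and bicarbonate transport, 0.17 for the receptor relay, 0.25 for phosphatases, 0.011 for oxidase gene regulators and 0.12 for all genes. Adjusted for length, the ratios were -0.49 for Hvcn1, -0.069 for Cyba, 0.11 for Ncf4 and -0.052 for Rac2, and medians were -0.0030 for oxidase activation, 0.018 for peroxide removal and 0.033 for phosphatases. Adjusted by the longest transcript, which was chosen after seeing the data, the values were 0.11 for Cybb, 0.10 for Cyba and 0.14 for Ncf4, and the medians 0.076 for the 6 genes and 0.026 for peroxide removal. The oxidant response median was 0.15 with a filter of 5 FPKM and also with no filter.

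At 2-fold, 0 of the 6 genes were lower in CD80high. Over all genes, those lower and higher in CD80high numbered 89 and 150 at 1.5-fold, 10 and 35 at 2-fold, 399 and 255 with a pseudocount of 5, and 243 and 1493 after rescaling to the mean total. Lower genes numbered 407 after length adjustment and 355 with the longest transcript; higher genes numbered 347 with a filter of 5 FPKM. The counting intervals of the 6 genes are narrow, and the spread between animals is unknown.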
